A study of Homo sapiens with 12 samples.

Results

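The transcription factor NRF2, its inhibitor KEAP1 and 8 enzymes and carrier proteins of the antioxidant response were followed in poly(A) RNA of HEK293T cells, an SV40-expressing human embryonic kidney line, with and without an inhibitor of mRNA decapping. The 10 genes were chosen by symbol (NFE2L2, KEAP1, HMOX1, NQO1, GCLC, GCLM, TXNRD1, SRXN1, TXN and PRDX1). All 10 were found among the 23615 gene entries listed at each time. Cells had been treated for 18 h with 2 μM CP25, a macrocyclic compound that the labels call an inhibitor of the decapping enzyme Dcp2, or with the same volume of its storage buffer as vehicle. Transcription was then stopped with actinomycin D at 5 μg/mL, and RNA was collected at 0 h and after 2 h, which gave 4 groups (vehicle and CP25 at each time) of 3 libraries each. All groups therefore share the line and the exposure scheme, and the libraries of 0 h stand for cells before the block took effect. The labels number the replicates and do not say whether they were separate cultures, so the spread between them may be technical. In a bulk measurement, fewer cells that express a gene and less of its RNA per cell cannot be told apart.

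NRF2, encoded by NFE2L2, is held at a low protein level by KEAP1, an adaptor that presents it to a CUL3 ubiquitin ligase. Oxidants and electrophiles modify cysteines of KEAP1, NRF2 then accumulates, pairs with a small MAF protein and binds antioxidant response elements in the promoters of its target genes. Several of these targets maintain the pools of glutathione and thioredoxin, the main thiol reductants of the cell. The control is mostly on protein, and the turnover of these mRNAs sets how quickly a change in transcription would be seen.

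Sequences upstream of the genes were searched for the core of the antioxidant response element, written TGACNNNGC, on both strands. RefSeq start-site windows (GRCh38.p14, 250 bases before to 50 after a start) were found for 8 of the 10 genes, with 11 windows in all, and none was found for HMOX1 and PRDX1. The core was present in 4 of the 11 windows, belonging to 3 genes, against 13.3% of all 35116 windows. No core was found in the windows of NFE2L2, NQO1, GCLC, SRXN1 and TXN, and elements farther from a start would not be seen. The stretches below, upstream of a start on the gene's strand, were selected because they show the core. Capitals mark the core or its reverse complement.
GCLM (chr1:93909446-93909474, minus strand): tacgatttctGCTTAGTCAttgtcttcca
TXNRD1 (chr12:104286920-104286948, plus strand): gtggatttctGCTTTGTCAttctgactct
TXNRD1, other start (chr12:104215670-104215698, plus strand): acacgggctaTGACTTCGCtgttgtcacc
KEAP1 (chr19:10502784-10502812, minus strand): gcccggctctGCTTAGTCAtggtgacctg

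The other end of the transcripts bears on decay. The sequence TATTTAT, an AU-rich element core when it lies in a 3′ untranslated region, was searched on the sense strand of 1 principal GENCODE 29 transcript per gene. It was present in NFE2L2, SRXN1, GCLM and TXNRD1 and was not found in the other 6 genes. The stretches below (GRCh38) show it for these 4, with the core in capitals. In TXNRD1 a second copy overlaps the first, and GCLM has another copy elsewhere in its 3′ region.
NFE2L2 (chr2:177230511-177230533, minus strand): caaaaactTATTTATactgttct
SRXN1 (chr20:647306-647328, minus strand): tggatgggTATTTATttggataa
GCLM (chr1:93888083-93888105, minus strand): atgtgtaaTATTTATtccccatt
TXNRD1 (chr12:104349987-104350009, plus strand): ttcagtttTATTTATttattttt

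The 3′ region of NFE2L2 is 480 bases long, and 15% of 3′ regions of similar length (0.8 to 1.25 times) hold the element. The shares for the lengths of the other 3 genes were 44.8% (SRXN1, 2099 bases), 63.7% (GCLM, 3785 bases) and 40.1% (TXNRD1, 1856 bases). Over the 10836 genes with a 3′ region that were expressed at 1 FPKM or more, 33.8% hold it. A match is a description of the letters only.

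Expression was measured as FPKM, by definition a fragment count divided by transcript length and by the mapped total of the library, so levels can be compared between genes. Whether the deposited values were divided by each library's own total is not given in the sources used here. If they were, the estimated depth was 13100000 to 22100000 fragments per library at 0 h and 21900000 to 29300000 fragments at 2 h. For NQO1, the lowest of the 10, this corresponds to 89 to 366 fragments per library, and for PRDX1, the highest, to 10945 to 37856. Within a group, log2 values of any pair of libraries correlated at 0.971 to 0.989 across genes. Of 7 genes typical of HEK293 cells, VIM (216 FPKM over all libraries), KRT18 (37.3) and NEFL (33.5) were well expressed, NEFM, KRT8 and PAX2 lay at 10.8, 3.33 and 1.35, and KRT19 was listed at 0. Markers of blood cells and of other epithelia averaged below 1 FPKM over the 12 libraries, with CD68 (0.654) and MUC1 (0.766) the highest of their lists. Single libraries above 1 FPKM were vehicle replicate 1 at 0 h for CD68 (1.14) and LYZ (1.15) and CP25 replicate 1 at 0 h for MUC1 (1.30). The 6 blood cell markers summed to 1.23 to 2.57 FPKM in vehicle and 1.46 to 1.63 in CP25 at 0 h, and to 0.691 to 1.79 and 1.03 to 1.40 at 2 h.

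Before the block, the thiol carriers were the most abundant transcripts. PRDX1, a peroxiredoxin that reduces hydrogen peroxide, measured 677, 801 and 777 FPKM in vehicle replicates 1 to 3. TXN, the cytosolic thioredoxin that recycles peroxiredoxins, measured 343, 405 and 412 FPKM, and TXNRD1, the selenoenzyme that keeps thioredoxin reduced with NADPH, measured 65.1, 72.6 and 75.0 FPKM. These 3 genes did not overlap with each other or with any other of the 10 genes. SRXN1, sulfiredoxin, which repairs over-oxidised peroxiredoxins, was far lower at 19.2, 20.1 and 21.5 FPKM.

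The regulators came next. NFE2L2 measured 30.5, 33.9 and 31.9 FPKM in vehicle at 0 h and KEAP1 26.7, 30.2 and 32.9 FPKM, so the factor and its inhibitor overlapped in level. The enzyme of the first step of glutathione synthesis consists of a catalytic subunit, GCLC, and a modifier subunit, GCLM. GCLC measured 19, 16.8 and 18.7 FPKM and GCLM 18.5, 17.1 and 19.9 FPKM, and both subunits overlapped with each other, and of the SRXN1 values only that of replicate 1 (19.2 FPKM) lay within the range of GCLM.

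The classic inducible targets were the lowest. HMOX1, haem oxygenase, which degrades haem to biliverdin, iron and carbon monoxide, measured 12.5, 12.5 and 14.3 FPKM in vehicle at 0 h. NQO1, the quinone reductase often used as a readout of NRF2, measured 2.33, 2.58 and 2.69 FPKM, below every library of the other 9 genes. Mean levels in CP25 at 0 h kept the same sequence from PRDX1 (774 ± 82.3 FPKM) to NQO1 (2.80 ± 0.218 FPKM; SD, n = 3).

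**Figure D1:**
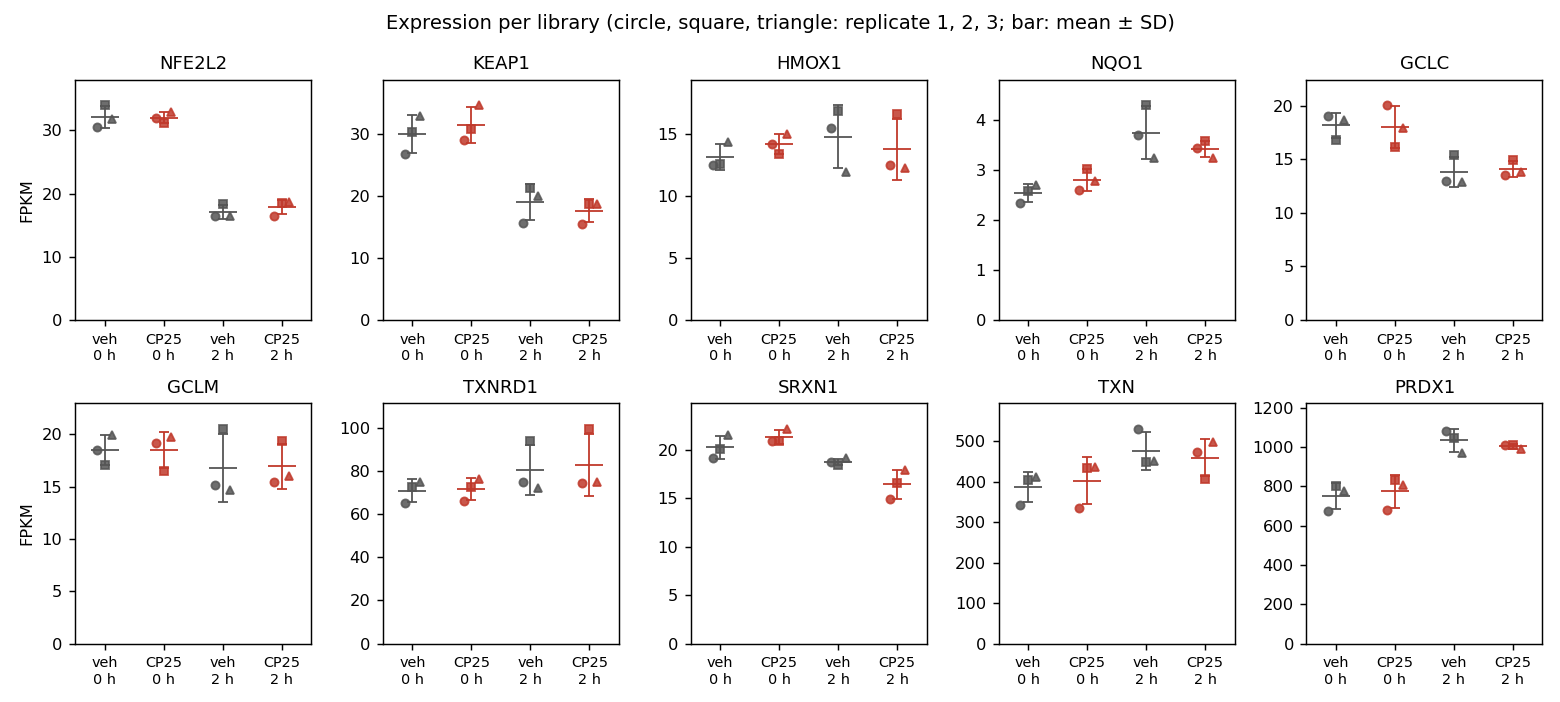
FPKM of each of the 10 genes (vertical axes, linear and starting at 0, 1 scale per gene) in vehicle (grey) and CP25 (red) at 0 h and 2 h; symbols are the 3 libraries and bars the mean ± SD. NFE2L2 and KEAP1 lie lower at 2 h in every library, PRDX1 and NQO1 higher, and the vehicle and CP25 libraries of a time overlap for all genes except SRXN1 at 2 h.

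The question of the time course is how much of each mRNA was left after 2 h without new transcription. The 2 times come from different deposited tables whose scaling may differ, and they are therefore compared by description only. Because FPKM expresses a share of the library, a level above 100% of that at 0 h means a loss smaller than that of the library as a whole where the block was complete, which was not tested. Log2 ratios are of FPKM + 1 and understate the change of a low gene such as NQO1. The median log2 ratio of all 12183 genes above the filter was -0.18 in vehicle and -0.16 in CP25. The members had medians of 0.02 and -0.09.

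The 2 regulators had the lowest values. NFE2L2 went from 32.1 ± 1.73 to 17.1 ± 1.05 FPKM in vehicle, with 16.4, 18.3 and 16.5 FPKM in replicates 1 to 3 at 2 h, and 53.2% was left. In CP25 it went from 32.0, 31.1 and 32.9 FPKM to 16.5, 18.5 and 18.6 FPKM, which left 55.9%. Every 2 h library lay below every 0 h library. The log2 ratios were -0.87 ± 0.0643 in vehicle and -0.81 ± 0.0574 in CP25 (SE, n = 3 and 3), and their mean placed NFE2L2 at percentile 10.8 of all genes.

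KEAP1 stood at 15.7, 21.3 and 20.0 FPKM in vehicle at 2 h, 63.3% of the 0 h mean. In CP25 it was at 29, 30.8 and 34.6 FPKM at 0 h and at 15.4, 18.7 and 18.7 FPKM at 2 h, which left 56.0%. The times did not overlap in either treatment, and the log2 ratios were -0.64 ± 0.152 and -0.80 ± 0.113 (SE). The mean of both was at percentile 14.5. KEAP1 has no TATTTAT in its 532-base 3′ region, and 16.4% of 3′ regions of similar length hold it. Whether the element bears on the level left was not tested.

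Of the glutathione subunits, GCLC lay lower at 2 h without overlap and GCLM overlapped with 0 h, and the difference between both was not tested. GCLC was left at 75.9% in vehicle (13, 15.4 and 12.9 FPKM at 2 h) and 78.3% in CP25 (20.0, 16.1 and 17.9 FPKM at 0 h, 13.5, 15 and 13.8 FPKM at 2 h), with no overlap of the times in either. GCLM was left at 90.5% and 91.5%. It measured 15.1, 20.5 and 14.7 FPKM in vehicle at 2 h, and 19.2, 16.5 and 19.8 FPKM at 0 h and 15.4, 19.3 and 16 FPKM at 2 h in CP25. The replicate 2 libraries at 2 h were the high ones for both subunits. GCLM has 12 copies of the pentamer ATTTA, the most of the 10 genes, where 3′ regions of similar length have a median of 8. TXN has 3 against a median of 0, NFE2L2 3 against 1 and TXNRD1 6 against 4. The remaining genes lie at or below the median for their length. Whether the copies bear on the level left was not tested.

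Of the thioredoxin branch, PRDX1 and TXN stood above their 0 h level. PRDX1 measured 1083, 1047 and 971 FPKM in vehicle at 2 h, 138% of the 0 h mean. In CP25 it measured 681, 835 and 808 FPKM at 0 h and 1010, 1012 and 990 FPKM at 2 h, or 130%. The times did not overlap in either treatment, and the mean log2 ratio of 0.42 was at percentile 97.2 of all genes. TXN measured 530, 449 and 451 FPKM in vehicle at 2 h, 123% of 0 h and without overlap. In CP25 the TXN values of 336, 435 and 437 FPKM at 0 h overlapped with 475, 408 and 498 FPKM at 2 h (114%).

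TXNRD1 measured 75.0, 93.7 and 72.3 FPKM in vehicle at 2 h (113%). In CP25 it went from 65.9, 72.5 and 76.3 FPKM to 74.1, 99.2 and 74.9 FPKM (116%). The times overlapped in both treatments, and replicate 2 was again the high library at 2 h. SRXN1 stood at 18.7, 18.5 and 19.1 FPKM in vehicle at 2 h (92.6%), all 3 below the lowest 0 h value of 19.2 FPKM. In CP25 it went from 21.0, 21.0 and 22.2 FPKM to 14.9, 16.6 and 17.9 FPKM (77.2%), also without overlap.

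HMOX1 was close to its starting level. It measured 15.5, 16.8 and 11.9 FPKM in vehicle at 2 h (113%). In CP25 it measured 14.1, 13.3 and 15 FPKM at 0 h and 12.4, 16.6 and 12.2 FPKM at 2 h (97.3%). The times overlapped in both, with the spread at 2 h more than that at 0 h. NQO1 measured 3.70, 4.28 and 3.23 FPKM in vehicle at 2 h (148%). In CP25 it measured 2.59, 3.02 and 2.78 FPKM at 0 h and 3.44, 3.57 and 3.24 FPKM at 2 h (122%). The NQO1 times did not overlap in either treatment.

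**Figure D2:**
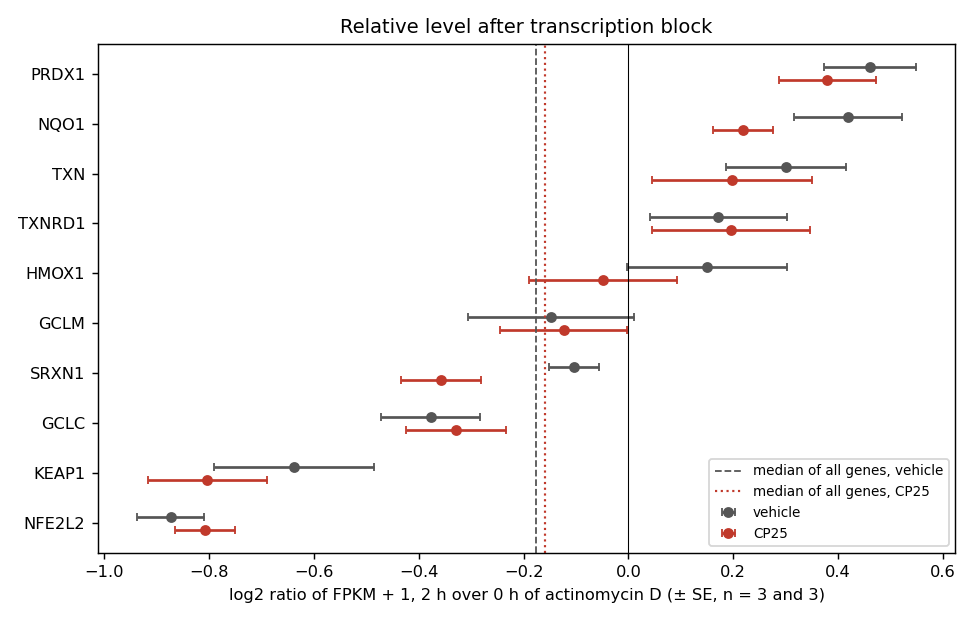
Log2 ratio of FPKM + 1 at 2 h to that at 0 h (horizontal axis) for each gene in vehicle (grey) and CP25 (red), with the SE from 3 libraries at each time; dashed and dotted lines are the medians of all genes. NFE2L2 and KEAP1 lie lowest, at -0.87 and -0.64 in vehicle, and PRDX1 highest, at 0.46.

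Counted over the 10 genes, 0 lay below a log2 ratio of -1 with vehicle, against 7.26% of all genes, and 0 with CP25, against 7.22%. In vehicle, 4 genes (NFE2L2, KEAP1, GCLC and SRXN1) lay without overlap below 0 h and 3 (NQO1, TXN and PRDX1) above it. All genes gave 46.0% lower and 15% higher by the same measure. In CP25 the same 4 genes lay lower and 2 (NQO1 and PRDX1) higher, against 44.0% and 15.5%.

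How far these ratios lie from zero depends on how libraries are scaled. Centring each library on its median moved the median ratio of all genes from -0.18 to 0.17 in vehicle, and quantile normalization moved it to 0.05. Relative to that median, NFE2L2 lay at -0.70 as deposited, -0.70 after centring and -0.78 after quantile normalization in vehicle, and KEAP1 at -0.46, -0.46 and -0.55. PRDX1 lay at 0.64, 0.64 and 0.17, and NQO1 at 0.60, 0.60 and 0.80. GCLC lay at -0.20, -0.20 and -0.18. TXN was the only one of the 10 genes whose side of the median turned, from 0.48 to -0.00183 in vehicle and from 0.36 to -0.06 in CP25, both under quantile normalization. Centring shifts all genes of a library alike, so it cannot change these distances from the median. With a pseudocount of 0.1 and with quantile normalization, the other 9 kept their side in each treatment.

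Libraries of a group differed in which members were low or high there. At 0 h, replicate 1 was the lowest of its group for 8 of the 10 genes in vehicle and for 6 in CP25, and replicate 3 was the highest for 7 in both. At 2 h, replicate 2 was the highest for 7 genes in vehicle and 6 in CP25, while the lowest library differed, replicate 3 in vehicle and replicate 1 in CP25 (6 genes each). Vehicle replicate 1 at 0 h also had the lowest estimated depth, 13100000 fragments. The part of depth in these positions was not tested.

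The comparison of CP25 with vehicle at 0 h asks whether 18 h of the inhibitor altered the steady state of the pathway. None of the 10 genes passed: limma called 0 members, against 0% of 12365 genes (0 genes at adjusted p under 0.05, and 43 higher and 45 lower at an unadjusted p under 0.05). HMOX1 had a log2 change of 0.10 (95% interval -0.07 to 0.28, limma adjusted p = 1) and NQO1 one of 0.10 (-0.10 to 0.31). NFE2L2 was at -0.0032 (-0.14 to 0.14), an interval in folds of 0.905 to 1.10, and KEAP1 at 0.07 (-0.16 to 0.29). GCLC and GCLM were at -0.01 (-0.22 to 0.20) and -0.0021 (-0.21 to 0.20). SRXN1 was at 0.07 (-0.07 to 0.22), TXNRD1 at 0.01 (-0.18 to 0.21), TXN at 0.05 (-0.27 to 0.37) and PRDX1 at 0.04 (-0.26 to 0.34). In the fit with the replicate number as a block, HMOX1 had an unadjusted limma p of 0.0442 (adjusted 0.707) at 0 h. SRXN1 and KEAP1 followed at unadjusted limma p of 0.0922 and 0.0979. Over all genes that fit put 323 higher and 534 lower at an unadjusted p under 0.05.

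No member had vehicle and CP25 libraries apart at 0 h, where 4.08% of all genes did. By value, 7 of the 10 genes were higher and 3 lower in CP25, with a median log2 change of 0.05, against 5869 higher and 6496 lower and a median of -0.00365 over all genes. The authors' deposited table gave the smallest unadjusted p for NQO1 (0.396) and HMOX1 (0.407).

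At 2 h, the comparison asks whether the transcripts that outlasted the block differed with CP25. Again 0 members were called by limma, against 0.00851% of 11745 genes (1 gene). SRXN1 was the member farthest from equality. Its 3 CP25 values (14.9, 16.6 and 17.9 FPKM) lay below its 3 vehicle values (18.7, 18.5 and 19.1 FPKM), a mean of 16.5 ± 1.5 against 18.8 ± 0.342 FPKM (SD, n = 3). The log2 change was -0.18 (95% interval -0.37 to 0.0036, limma adjusted p = 1). With the replicate number as a block, the unadjusted limma p of SRXN1 at 2 h was 0.0131 (adjusted 0.716). KEAP1 followed at an unadjusted limma p of 0.075. Over all genes that fit put 428 higher and 386 lower at an unadjusted p under 0.05. SRXN1 was the only one of the 10 genes whose libraries did not overlap, and 4.21% of all genes had no overlap at 2 h.

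The other members had intervals on both sides of zero. NFE2L2 was at 0.06 (-0.12 to 0.24), in folds 0.920 to 1.18, and KEAP1 at -0.10 (-0.39 to 0.20). HMOX1 and NQO1 were at -0.09 (-0.45 to 0.26) and -0.10 (-0.33 to 0.14). GCLC was at 0.04 (-0.17 to 0.24), GCLM at 0.02 (-0.30 to 0.35) and TXNRD1 at 0.04 (-0.29 to 0.37), and TXN and PRDX1 were at -0.05 (-0.28 to 0.18) and -0.04 (-0.19 to 0.11). Of the 10 values 4 were positive and 6 negative, with a median of -0.05, against 6305 and 5440 and a median of 0.00558 for all genes. In the authors' deposited table the smallest unadjusted p of a member at 2 h was that of SRXN1, 0.123.

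**Figure D3:**
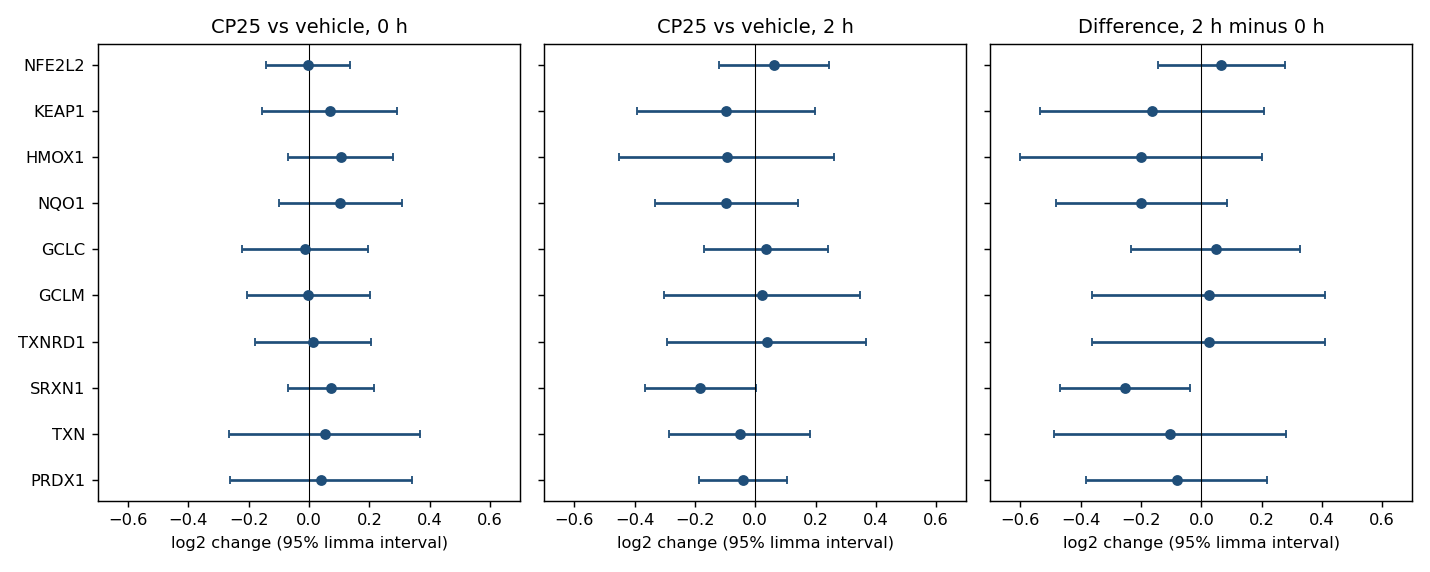
Log2 change of FPKM + 1 with CP25 (horizontal axes, with 95% limma intervals) for each gene at 0 h, at 2 h, and as the difference of both. All intervals include zero except that of SRXN1 in the difference, -0.47 to -0.04, which is not adjusted for the number of genes.

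Subtracting the CP25 effect at 0 h from that at 2 h measures whether CP25 altered the share of an mRNA left after the block. A scale factor per table nearly cancels in it, less so for a low gene such as NQO1, because 1 is added to FPKM. Factors that differ between libraries of a table do not cancel. No member was called by limma (0% of 12183 genes, 0 genes in all), and the adjusted p was 1 for each. SRXN1 had a difference of -0.25 (95% interval -0.47 to -0.04), which corresponds to 0.839 times as much left with CP25 as with vehicle (0.722 to 0.974). It was 1 of 153 genes at an unadjusted p under 0.05 (94 above and 59 below zero). A limma fit with the replicate number as a block put 768 genes above and 516 below zero at that threshold. The unadjusted p-values and the intervals therefore depend on whether the block is used. CP25 was above vehicle for SRXN1 in all 3 same-number pairs of libraries at 0 h (log2 0.12, 0.06 and 0.04) and below it in all 3 at 2 h (-0.31, -0.14 and -0.09). KEAP1 had the same signs in all 6 pairs, and HMOX1, NQO1 and PRDX1 were also higher with CP25 in all 3 pairs at 0 h. Deviations of same-number libraries correlated at 0.26, -0.01 and 0.12 at 0 h. The share of all genes with such signs was not computed. With the replicate number as a block at both times, 0 h included, the limma adjusted p of SRXN1 was 0.304. The interval reached zero when vehicle replicate 1 or CP25 replicate 3 at 0 h, or CP25 replicate 1 at 2 h, was left out (differences -0.22, -0.23 and -0.19).

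For the remaining members the intervals bound how far CP25 could have moved the fraction left. NFE2L2 had a difference of 0.07 (-0.14 to 0.28), in folds 0.905 to 1.21. KEAP1 was at -0.16 (-0.54 to 0.21), HMOX1 at -0.20 (-0.60 to 0.20) and NQO1 at -0.20 (-0.48 to 0.08). GCLC was at 0.05 (-0.23 to 0.33), GCLM and TXNRD1 were both at 0.02 (-0.36 to 0.41), TXN at -0.10 (-0.49 to 0.28) and PRDX1 at -0.08 (-0.38 to 0.22). A doubling or halving would be a log2 value of 1 or -1, outside all 10 intervals. The median of the 10 differences was -0.09 with 6 below zero, against 0.00826 with 5651 of 12183 below zero for all genes. These counts rest on the same 12 libraries for every gene, so the 10 values are not independent.

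Genes with the profile nearest to that of NFE2L2 over the 12 libraries were sought among 8736 genes at 5 FPKM or more, by Euclidean distance between log2 values centred on each gene's mean. The nearest was NCK1, an adaptor of receptor tyrosine kinases (distance 0.137, log2 ratio -0.88 in vehicle and -0.83 in CP25). FAM117B (0.143), the transcription factor ELF1 (0.171), the TFIIE subunit GTF2E1 (0.191) and the co-chaperone BAG4 (0.207) followed, with vehicle ratios of -0.76 to -0.87. For HMOX1 the nearest were RRAGC, a Rag GTPase (0.280), PSMC2, an ATPase of the proteasome (0.282), ECD (0.282), TDP2 (0.301) and MMGT1 (0.303), all at larger distances than those of NFE2L2. Their vehicle ratios were 0.03 to 0.18, beside 0.15 for HMOX1. For both genes, ratios near their own follow from the choice, because the profiles compared hold the change from 0 h to 2 h.

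The wider pathway was read from 5 further lists of genes. None of their members passed limma in any of the 3 comparisons in which they were tested. MAFK, BACH2 and CHAC1 averaged below 1 FPKM at 2 h and were not tested there. Of 18 measured NRF2 partners and regulators, 10 lay without overlap lower at 2 h in vehicle, where 46.0% of all genes did, and 11 in CP25, against 44.0%. Their median log2 ratios of -0.24 and -0.28 lay close to those of all genes, -0.18 and -0.16. PALB2, a BRCA2 partner that also binds KEAP1, retained 27.6% with vehicle and 31.2% with CP25. SYVN1, an endoplasmic reticulum ubiquitin ligase, was left at 47.8% and 46.7%, and the small MAF gene MAFK at 35.6% and 28.8%. MAFK averaged only 0.885 FPKM with vehicle and 0.724 FPKM with CP25 at 2 h, so its share left is imprecise.

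A further 3 genes of this list are given as values only, since they were chosen after their values were seen. MAFG, another small MAF, went from 8.67, 6.58 and 7.56 FPKM to 3.71, 3.38 and 3.90 FPKM in vehicle (48.2%; 50.2% in CP25). BACH1, the repressor that competes with NRF2 at its elements, was left at 64.6% and 70.7%, and NFE2L1, a paralogue of NRF2, at 67.5% and 67.1%. The ligase scaffold CUL3, in contrast, stood at 108% and 109%, NFE2L3 at 109% and 117% and DCAF11 at 113% and 111%. The regulator mRNAs covered both low and high values. In CP25 at 2 h, RBX1, the RING subunit of CUL3 ligases, had the smallest p of the list (log2 change -0.15, 95% interval -0.31 to 0.0099, limma adjusted p = 1), and PALB2 did at 0 h (-0.10). DPP3, a peptidase that binds KEAP1, did for the difference of effects (-0.22, -0.42 to -0.01).

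Among 26 measured other NRF2 targets of 33 listed, 3 lay without overlap lower and 9 higher at 2 h in each treatment, with medians of 0.07 and 0.09. Over all genes 46.0% and 44.0% lay lower and 15% and 15.5% higher in vehicle and CP25. GSTA4, a glutathione transferase for lipid aldehydes, stood at 147% in vehicle and 153% in CP25, the NADPH-producing malic enzyme ME1 at 145% and 142%, and GSTM3 at 144% and 133%. At the low end were the glycine transporter SLC6A9 (63.8% and 69.3%), the export pump ABCC1 (74.9% and 75.4%) and TRIM16 (71.3% and 68.0%). The smallest p in CP25 belonged to BLVRA at 0 h (log2 change 0.12), GSR at 2 h (0.09) and BLVRB for the difference (-0.25), all with limma adjusted p = 1. BLVRA and BLVRB are biliverdin reductases, which act after HMOX1, and GSR is glutathione reductase.

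The glutathione list (23 of 24 genes measured) had medians of 0.11 and 0.03. CHAC1, which degrades glutathione, was near the lower end of detection at 2 h. It measured 0.265, 0.0679 and 0.435 FPKM with vehicle and 0.375, 0.0513 and 0.215 FPKM after CP25. The 0 h level of CHAC1 was 2.00 ± 0.818 FPKM with vehicle and 1.87 ± 0.355 FPKM after CP25 (SD, n = 3). Every 2 h library lay below every 0 h library in both treatments, but the share left is imprecise at these levels and is not given. GGT7 was left at 71.9% and 68.5%, and CHAC2 at 76.0% and 88.0%. GGCT stood at 149% and 144%, GLO1, which detoxifies methylglyoxal, at 143% and 137%, and GLRX3 at 130% and 132%. With CP25, GPX8 had the smallest p at 0 h (0.12), CHAC2 at 2 h (0.24) and GSTO1 for the difference (-0.22), given as log2 changes, none past limma (adjusted p = 1).

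The remaining thioredoxin and peroxiredoxin genes (18 measured) had medians of 0.12 and 0.10. TXNIP, the inhibitor of thioredoxin, was an exception. It measured 16.6, 17.2 and 18.7 FPKM in vehicle at 0 h and 4.03, 3.15 and 2.96 FPKM at 2 h (19.3%), and 21.1% was left in CP25, while TXN stood at 123% and 114%. SESN2, a stress-induced sestrin, was left at 56.3% and 47.1%, and SESN3 at 69.5% and 72.8%. PRDX4 (135% and 128%), PRDX6 (134% and 128%) and TXNRD3 (139% and 141%) were near PRDX1.

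TXNDC17, a thioredoxin-like reductase, had the smallest p of that list in every CP25 comparison. At 0 h it measured 19.8, 21.1 and 21.0 FPKM with vehicle and 20.4, 27.1 and 24.5 FPKM after CP25. At 2 h it measured 34.8, 28.6 and 31.3 FPKM with vehicle and 29.1, 26.6 and 25.9 FPKM after CP25. The groups overlapped at both times, and the difference of effects was -0.40 (95% interval -0.71 to -0.10, limma adjusted p = 1). Superoxide and peroxide enzymes (6 measured) had medians of 0.17 and 0.22. PARK7 stood at 132% and 131%, SOD1 at 136% and 126%, SOD2 at 115% and 117%, catalase (CAT) at 111% and 117%, OXR1 at 99.5% and 99.8%, and CCS, the copper chaperone of SOD1, was left at 85% and 75.6%. SOD1 (0 h and difference, log2 0.12 and -0.11) and CAT (2 h, 0.06) had the smallest p with CP25.

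**Figure D4:**
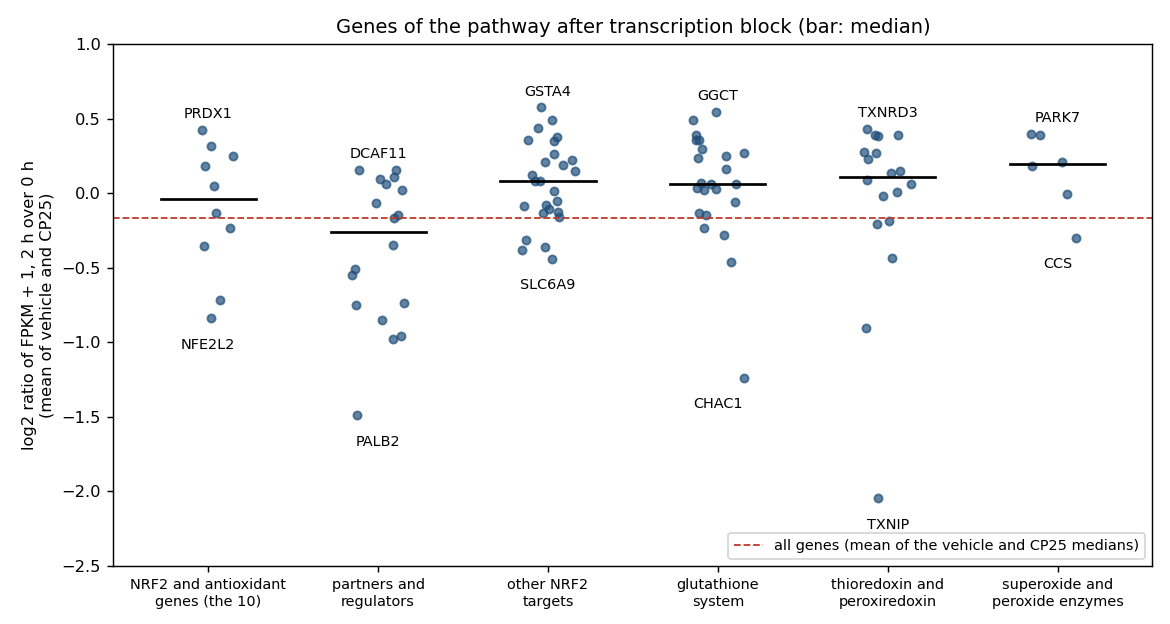
Log2 ratio of FPKM + 1 at 2 h to 0 h, averaged over both treatments (vertical axis), for each measured gene of the 10 and of 5 further lists; bars are list medians, the dashed line marks all genes, and the lowest and highest gene of each list are named. TXNIP and PALB2 lie lowest, at -2.05 and -1.49.

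Some values carry an uncertainty of assignment. GENCODE 29 places exons of another gene on those of NFE2L2, NQO1, GCLC and SRXN1, and exons of MMACHC on those of PRDX1, and whether the authors counted by strand is not stated in what was used here. That annotation has 7 pseudogenes named after TXN and 1 named after PRDX1, with which reads can be shared.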

How the data were processed

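Poly(A) RNA of 12 libraries was analysed from the authors' deposited FPKM values, 1 table per time. The submitters' processing notes name hg19, Bowtie2 2.2.3, Trimmomatic 0.36 and CASAVA 1.8.2. Which program computed FPKM is not given in the sources used here. Besides FPKM, the authors' deposited table of comparisons gave group means and p-values, taken as unadjusted. Depth was estimated from the FPKM worth 1 fragment in genes with 1 GENCODE 29 transcript over 1000 bases.

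Log2(FPKM + 1) of genes averaging 1 FPKM or more was fitted with limma 3.58.1 in R 4.3.3 (moderated variances with trend, Benjamini-Hochberg adjustment over all genes at 0.05). The fits were also run on simulated data in which every library was drawn independently. That run cannot show how deviations shared between libraries affect the fits. The members, lists and tests were chosen with earlier results of these data known. Named list genes were the 3 lowest and 3 highest by mean ratio and that with the smallest p per comparison. MAFG, BACH1 and NFE2L1 were named outside this rule. Same-number vehicle and CP25 libraries had correlated deviations at 2 h (0.35, 0.45 and 0.15) but not all at 0 h (0.26, -0.01 and 0.12). Different-number pairs ranged from -0.44 to 0.11 at 2 h and from -0.22 to 0.13 at 0 h. At 2 h the lowest same-number value thus lay close to the highest different-number one. The labels do not say what libraries of the same number share, so the block was run as an alternative only. Alternatives were pseudocount 0.1, other filters (none, 5 FPKM), centring, quantile normalization, the replicate block, no trend, the authors' p-values and leaving out each library. All 10 members were above the filter at both times.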

Additional observations from a re-analysis of the deposited data

How the results depend on the processing

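No member was called in any comparison under any alternative run, replicate block included, where 0 members were called in each. None had a log2 ratio of 2 h to 0 h below -1 under any alternative. Over all genes, leaving out 1 library called 1 to 4 genes at 0 h (4 without CP25 replicate 1, 2 without CP25 replicate 2 or vehicle replicate 1 or 2, 1 without either replicate 3), 1 to 7 at 2 h (7 and 5 without CP25 replicates 2 and 3, 2 without CP25 or vehicle replicate 1) and 0 to 3 for the difference (of the 0 h libraries, 3 without CP25 replicate 2, 2 without CP25 replicate 1 and 1 without vehicle replicate 2; of the 2 h libraries, 2 without CP25 replicate 3 and 1 without CP25 replicate 2 or vehicle replicate 1). The authors' p-values called 0 genes at 2 h, against 1. The block changed no call: it called 0, 1 and 0 genes at 0 h, at 2 h and for the difference. For SRXN1 the difference stayed below zero in all 19 alternatives (-0.31 to -0.19), with limma adjusted p between 0.304 and 1. With the block, unadjusted limma p fell to 0.00516 for SRXN1 and 0.0189 for KEAP1 in the difference. Over all genes, 768 lay above and 516 below zero at an unadjusted p under 0.05 in that fit. The block there also covers the 0 h libraries, whose same-number deviations correlated at 0.26, -0.01 and 0.12. At 0 h alone the block put 323 genes higher and 534 lower at that threshold, against 43 and 45 without it. HMOX1 in CP25 (-0.05) turned to 0.28 after centring and 0.21 after quantile normalization, which move the median of all genes upward, and also changed sign without CP25 replicate 1 or 3 at 2 h. GCLM turned likewise in both treatments and SRXN1 in vehicle, under centring and quantile normalization only, and TXN in CP25 to -0.00163 under the latter. NQO1 has the fewest estimated fragments of the 10 genes, 89 to 366 per library, and was not in the fits with the 5 FPKM filter.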
